A study of Drosophila melanogaster with 6 samples.

Results

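The comparison described here is between tRNA-derived small RNAs of adult male flies 2 days after a heat shock and those of flies taken on the day of the heat shock. It uses 4 of the 6 libraries of the series, chosen by their labels: both libraries labelled 2 day recovery and both labelled heat shock, paired by genotype. They hold 117174 of the 200011 tRNA-derived reads. All animals were Drosophila melanogaster males of the w1118 strain, and RNA came from the whole body without the testes, which the labels call soma. The heterozygotes carried the alleles +/Dnmt2 mutant;+/+ and the mutants Dnmt2 mutant/Dnmt2 mutant;+/+, so the comparison flies also carry 1 mutant copy, although the series title calls them wild type. No source used here names the Dnmt2 allele or the number of flies per library. Heat shock flies were 10 days old and spent 1 h at 37 °C in a water bath and then 5 h at room temperature. Recovery flies had the same 1 h at 37 °C, then 2 days, and were 12 days old, so recovery and 2 days of age cannot be told apart. Untreated controls were 10 days old and are given beside the values as the unstressed level.

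tRNA fragments arise when endonucleases cut a mature tRNA, most often in the anticodon loop, and leave a 5′ and a 3′ piece. In flies and other animals such fragments accumulate under stress. Dnmt2 is a tRNA methyltransferase that places a methyl group on a cytosine of the anticodon loop of Asp-GTC, Gly-GCC and Val-AAC, and this mark is known to protect these tRNAs from cleavage.

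Each read was counted once in a library. Reads were then added up over all gene copies with 1 anticodon, an isoacceptor, since copies that hardly differ list the same sequence. The heterozygote heat shock library held 46057 tRNA-derived reads and the heterozygote recovery library 28521. The mutant heat shock library held 37475 and the mutant recovery library 5121, so the mutant recovery values are the least precise. The controls held 15336 and 67501. Wherever a genotype has a pair of values, heat shock comes first and recovery follows, and a pair for the controls gives heterozygotes and then mutants. These are totals of the tRNA lists and not the sequencing depth. The reads were 30 to 51 nt long, and between 97.6% and 99.3% of a library could be placed on a tRNA. The lists hold tRNA reads alone, so neither the Dnmt2 transcript nor markers of a tissue were available to check the labels. Each group has 1 library, so p-values measure only how these libraries vary around the fit, with the spread shared by features. In whole-body RNA, fewer cells that make a fragment and less of it per cell cannot be told apart.

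The fragments below carry the changes that passed the test, or show the cut sites set beside them. They are deposited reads written 5′ to 3′ as DNA. Capitals mark the bases of the anticodon that the fragment holds, at tRNA positions 34 to 36. Positions are counted from the anticodon, and a fragment that ends at 34 was cut after the first anticodon base. The Gly-GCC, Glu-CTC and Lys-CTT fragments are named without their sequence.
Cys-GCA ending at 34: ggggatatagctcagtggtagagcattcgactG
Cys-GCA ending at 34, other copies: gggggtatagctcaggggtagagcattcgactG
Cys-GCA ending at 33: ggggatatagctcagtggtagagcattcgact
Pro-CGG ending at 35: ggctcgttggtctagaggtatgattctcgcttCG
Pro-TGG ending at 35: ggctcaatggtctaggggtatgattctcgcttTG
Asp-GTC ending at 35: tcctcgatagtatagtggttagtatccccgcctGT
Lys-TTT ending at 33: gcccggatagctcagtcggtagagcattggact
Lys-TTT ending at 34: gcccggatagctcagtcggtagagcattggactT

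The Cys-GCA genes that list these reads lie on chromosome arm 3L. The Asp-GTC genes lie on 2L, 3L and 3R, the Pro-CGG genes on 3L and X, and the Pro-TGG and Lys-TTT genes on 3R. The 2 Cys-GCA fragments that end at 34 differ at 2 bases. For context, the Asp-GTC tRNA joined from overlapping reads is 72 nt long, and 12 of the 14 Asp-GTC genes gave this sequence.
Asp-GTC tRNA: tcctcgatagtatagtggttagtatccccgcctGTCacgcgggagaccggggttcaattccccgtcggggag
The Cys-GCA tRNA could be joined to 70 of its 72 annotated bases, since few reads reach its 3′ end.
Cys-GCA tRNA: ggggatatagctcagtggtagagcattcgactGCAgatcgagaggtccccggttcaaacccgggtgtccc

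Of 49 isoacceptor features, 25 had enough reads to be tested, and 1 of them changed between heat shock and recovery. It was Cys-GCA, the tRNA that brings cysteine to the ribosome, and it fell. That is 4% of the features tested, with 0 called higher by edgeR. DESeq2, run with RLE size factors, called 3 lower and 0 higher, and the count at an unadjusted edgeR p under 0.05 was 6. Cys-GCA made up 2.69% of the heterozygote heat shock library (1239 reads) and 1.21% of the recovery library (344 reads). In the mutants it made up 4.81% (1802 reads) and 1.13% (58 reads). The untreated controls stood at 0.750% and 0.612%. Both recovery libraries therefore lay below both heat shock libraries and above both controls. Cys-GCA fell by 2.08 ± 0.33 (SE) on the log2 scale, with an edgeR adjusted p of 1.5e-06 in the quasi-likelihood test on 6 libraries. Each pair taken alone gave a log2 ratio of -1.75 in heterozygotes (95% interval -1.93 to -1.58) and -2.38 in mutants (-2.79 to -2.01). The call was lost without mutant heat shock, where the value was -1.70, and without mutant recovery, where it was -1.98. Why the call was lost was not tested.

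**Figure D1:**
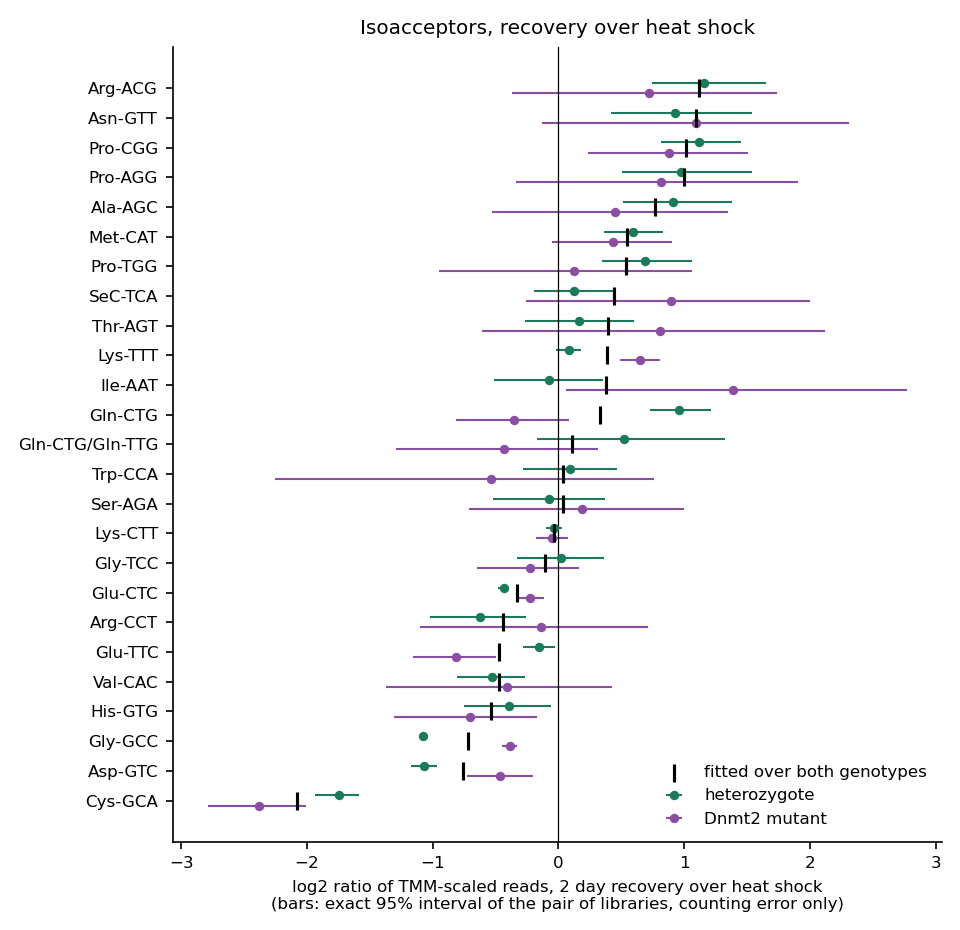
Log2 ratio of TMM-scaled reads, 2 day recovery over heat shock, for the 25 tested isoacceptors (y axis), with a point per genotype and its exact 95% interval, and a black tick for the value fitted over both genotypes. Cys-GCA stands alone at the bottom at -2.08, and the other 24 lie between -0.76 and 1.12.

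The other 24 features lay between -0.76 and 1.12 on the log2 scale and did not pass the threshold, 5 of them with an unadjusted p under 0.05. The median over all 25 was 0.11 with TMM scaling, -0.21 with RLE size factors and 0.55 with library totals. Scaling to library totals called 5 features higher and 1 lower, so the split between higher and lower depends on the scaling. The remaining 24 features had too few reads for the test, between 1 and 284 over all 6 libraries. They made up 0.501% to 1.23% of a library. Among them was Val-AAC, the third Dnmt2 substrate, with 9 and 5 reads in the heterozygotes and 2 and 0 in the mutants, where 0 reads allow a share of up to 0.0586%.

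Of the Dnmt2 substrates, Asp-GTC and Gly-GCC were tested and neither passed. Asp-GTC made up 5.66% of heterozygote heat shock reads (2605) and 4.08% of recovery reads (1165). The mutants had 2.99% (1122 reads) and 2.68% (137 reads), and the controls 3.17% and 0.938%. Within each genotype the recovery library was lower than the heat shock library, but the groups overlap, since heterozygote recovery lies above mutant heat shock. The fitted log2 change of Asp-GTC was -0.76 ± 0.32 (SE) with an edgeR adjusted p of 0.094. It passed without the mutant control at -0.98, with an edgeR adjusted p of 0.034, and in 2 of the 9 alternatives that kept all of the heat shock and recovery libraries.

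Gly-GCC gave the most reads in every library. Its share was 45.6% and 32.7% in heterozygotes and 56.5% and 53.2% in mutants, against 53.8% and 58.3% in the controls. The fitted log2 change was -0.72 ± 0.46 (SE), with an edgeR adjusted p of 0.30. It passed without the heterozygote control at -0.76, with an edgeR adjusted p of 0.0081. It also passed in 2 of the 9 alternatives that kept all of the heat shock and recovery libraries, at -1.05 with DESeq2 (adjusted p = 0.017) and at -0.94 with scaling factors made without Gly-GCC (edgeR adjusted p = 0.036). In the pairs taken alone the ratios were -1.08 (95% interval -1.11 to -1.04) and -0.39 (-0.44 to -0.33).

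Both glutamate isoacceptors lay below the median without passing. Glu-CTC made up 24.9% and 28% of heterozygote reads and 13.5% and 14.2% of mutant reads, with 17.8% and 7.17% in the controls. Its fitted log2 change was -0.33 ± 0.38 (SE), while its share of reads was higher in recovery in both genotypes, so its direction depends on the scaling. Glu-TTC made up 2.37% and 3.23% of heterozygote reads and 2.37% and 1.66% of mutant reads, with 2.01% and 1.26% in the controls, and had a log2 change of -0.48 ± 0.31.

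The lysine isoacceptors lay close to the median. Lys-CTT made up 9.43% of heterozygote heat shock and 13.9% of recovery, 9.40% and 11.2% of the mutant libraries, and 9.53% and 20.2% of the controls, with a log2 change of -0.04 ± 0.37 (SE). Lys-TTT made up 3.70% and 5.93% of the heterozygote libraries, 4.27% and 8.26% of the mutant ones, and 4.87% and 3.36% of the controls, with 0.39 ± 0.33. Both recovery libraries lay above both heat shock libraries for either lysine tRNA as a percent of reads, and above both controls for Lys-TTT.

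Other features below 0 were His-GTG at -0.53, Val-CAC at -0.48, Arg-CCT at -0.44 and Gly-TCC at -0.11. Without the mutant control, His-GTG and Val-CAC passed, both at -0.76, with edgeR adjusted p of 0.034 and 0.036. Val-CAC made up 0.632% and 0.663% of the heterozygote libraries and 0.275% and 0.254% of the mutant ones, beside 0.515% and 0.225% untreated. Arg-CCT, whose reads are nearly all 3′ fragments, made up 0.334% and 0.326% in heterozygotes, 0.227% and 0.254% in mutants, and 0.267% and 0.184% untreated. Gly-TCC made up 0.315% and 0.484% in heterozygotes, 1.12% and 1.17% in mutants, and 0.476% and 1.14% untreated. In Val-CAC and Gly-TCC the libraries of 1 genotype were closer to each other than to the other genotype. With library totals as scaling, Glu-CTC, Lys-CTT, Val-CAC, Arg-CCT and Gly-TCC came out above 0.

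The proline isoacceptors, all 3 tested, lay above 0 in both genotypes under TMM scaling and 2 of them did under RLE, and 0 of 3 passed. Their median was 1.00 beside 0.11 for all features, and it is the value of Pro-AGG. Pro-AGG reached the read filter of the test only in the recovery libraries, so its entry favoured a rise. Pro-CGG made up 0.265% of heterozygote heat shock reads (122) and 0.880% of recovery reads (251). In the mutants the shares were 0.248% (93 reads) and 0.566% (29 reads), and the controls had 0.854% and 0.551%. Both recovery libraries lay above both heat shock libraries, near their own controls. The log2 change was 1.02 ± 0.34 (SE) with an edgeR adjusted p of 0.060. It passed without the mutant control at 0.80, with an edgeR adjusted p of 0.034. Pro-AGG made up 0.109% and 0.333% of the heterozygote libraries, 0.0881% and 0.195% of the mutant ones, and 0.189% and 0.193% of the controls, with a log2 change of 1.00 ± 0.42. Pro-TGG made up 0.239% and 0.589%, 0.160% and 0.215%, and 0.528% and 0.382% in the same order, with 0.54 ± 0.37.

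Several other isoacceptors with few reads also had log2 values above 0 without passing. Among them, Arg-ACG, Asn-GTT and Ala-AGC reached the read filter in neither heat shock library, so their entry into the test favoured a rise. Arg-ACG reads numbered 62 (heat shock) and 133 (recovery) in heterozygotes, then 39 and 11 in mutants, or 0.135% and 0.466%, and 0.104% and 0.215% of the library, beside 0.143% and 0.234% in the controls. Its log2 change was 1.12 ± 0.40 (SE), with an edgeR adjusted p of 0.060. Asn-GTT stood at 0.0934% and 0.277% in heterozygotes and at 0.0640% and 0.176% in mutants, beside 0.209% and 0.25% in the controls. Its log2 change was 1.09 ± 0.43, with an edgeR adjusted p of 0.094. Ala-AGC made up 0.154% and 0.449% of the heterozygote libraries, 0.149% and 0.254% of the mutant ones, and 0.261% and 0.215% of the controls, with a log2 change of 0.77 ± 0.39. Met-CAT, which holds the initiator and elongator methionine tRNAs, made up 0.571% and 1.31%, 0.550% and 0.918%, and 1.12% and 1.33%, with 0.54 ± 0.32. In all, 9 of 25 features (36%) had both recovery libraries above both heat shock libraries as a percent of reads, and 1 of 25 (4%) had both below. Ala-AGC, Arg-ACG, Asn-GTT and Pro-AGG are among the 9 and reached the read filter in neither heat shock library. Such counts therefore depend on the filter, and they also depend on the scaling. With library totals the log2 ratios of both pairs were above 0 for 15 features and below 0 for 3. With TMM these counts were 10 and 9, and with RLE they were 6 and 12.

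**Figure D2:**
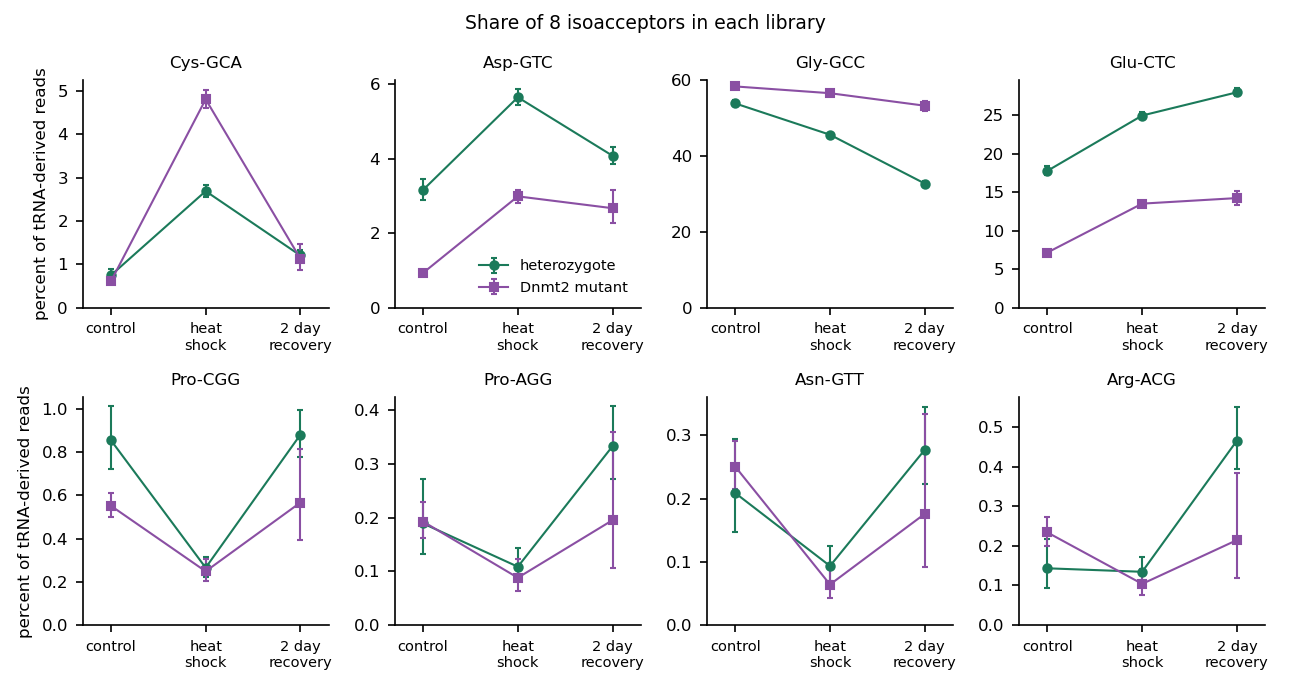
Percent of tRNA-derived reads (y axis, from 0, its own scale in each panel) of 8 isoacceptors in control, heat shock and 2 day recovery, heterozygotes in green circles and Dnmt2 mutants in purple squares, with 95% Wilson intervals. Cys-GCA is highest in heat shock at 2.69% and 4.81%, and in recovery, at 1.21% and 1.13%, it is still above the controls. Pro-CGG, Pro-AGG and Asn-GTT are lowest in heat shock.

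Glutamine had 2 tested features and 0 past the threshold. Gln-CTG made up 0.482% and 1.43% of the heterozygote libraries, 0.971% and 0.937% of the mutant ones, and 0.893% and 0.822% of the controls, with a log2 change of 0.33. Reads shared by Gln-CTG and Gln-TTG made up 0.0608% and 0.137%, 0.344% and 0.312%, and 0.130% and 0.615%, with 0.11. The tRNAs with a long variable arm had 2 tested of 11 with reads and 0 past the threshold. Selenocysteine SeC-TCA made up 0.352% and 0.582%, 0.0827% and 0.195%, and 0.313% and 0.273%, with a log2 change of 0.45. Ser-AGA made up 0.200% and 0.288%, 0.208% and 0.293%, and 0.300% and 0.302%, with 0.04. Ile-AAT, Thr-AGT and Trp-CCA were in no list and did not pass. A list of 7 isoacceptors that moved with heat shock in an earlier account of these same samples holds Cys-GCA, Asp-GTC, Pro-CGG, Pro-TGG, Asn-GTT, Met-CAT and reads shared by Gln-CTG and Gln-TTG. It had 1 member called lower and 0 called higher here, with a median of 0.54 beside 0.11. That list was chosen on these samples and shares the heat shock libraries with this comparison, so it is not independent evidence.

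Both cut sites that fell lie between the first and second anticodon base, at positions 34 and 35. Cut sites were counted from reads under 51 nt, as the last base of 5′ fragments and the first base of 3′ fragments. A read counted as a 3′ fragment only if it ended at the last base of the gene sequence. Reads with bases past that end, such as an added CCA, would not count. The numbers and shares of 3′ fragments may therefore leave such reads out. Of 33 cut sites tested, 2 fell (6.06%) and 1 rose (3.03%), or 9.09% in all. The split depends on the scaling, with 2 lower and 2 higher under library totals and 3 lower and 1 higher under RLE. DESeq2, which was run with RLE size factors, called 8 lower and 0 higher, so the rise was not called there. The 2 that fell were 3′ fragments of Gly-GCC starting at 35 and 5′ fragments of Cys-GCA ending at 34.

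Gly-GCC 3′ fragments that start at 35 numbered 2090 in heterozygote heat shock and 109 in heterozygote recovery. In the mutants they numbered 1105 and 22, and in the controls 77 and 125. As a percent of all reads these are 4.54% and 0.382% in heterozygotes, 2.95% and 0.430% in mutants, and 0.502% and 0.185% in the controls. Both recovery libraries lay far below both heat shock libraries and near the controls. The fragment fell by 3.63 ± 0.63 (SE) on the log2 scale, with an edgeR adjusted p of 0.0051. The fold stayed between -3.0 and -4.31 when single libraries were left out. The call was lost without heterozygote control (-3.68, edgeR adjusted p = 0.16), without mutant control (-3.87, edgeR adjusted p = 0.14) and without mutant heat shock (-3.73, edgeR adjusted p = 0.055).

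The neighbouring 3′ starts of the same tRNA, at 34 and 36, did not pass the test. Fragments starting at 36 numbered 766 (heat shock) and 445 (recovery) in heterozygotes, then 688 and 56 in mutants, with a log2 change of -0.86 ± 0.49 (SE). Those starting at 34 had -0.39 ± 0.46. The start at 35 therefore made up 69.3% of all Gly-GCC 3′ fragments in heterozygote heat shock (95% Wilson interval 67.6 to 70.9) and 16.3% in recovery (13.7 to 19.3). In mutants the share went from 56.7% (54.5 to 58.9) to 23.2% (15.8 to 32.6), the latter from 22 of 95 fragments. The control shares were 20.2% and 8.95%. The start at 36 held most of these fragments in both controls (68.0% and 68.4%) and in both recovery libraries (66.7% and 58.9%), but not in the heat shock libraries (25.4% and 35.3%). In heterozygotes the recovery intervals for the starts at 35 and 36 overlap those of the control. In mutants the start at 35 was still above the control (7.56 to 10.6).

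The 5′ side of this cut, Gly-GCC fragments that end at 34, is far more abundant and did not pass. It numbered 5181 (heat shock) and 2147 (recovery) in heterozygotes, then 4374 and 467 in mutants, or 11.2%, 7.53%, 11.7% and 9.12% of the library. Its log2 change was -0.91 ± 0.42 (SE), with an edgeR adjusted p of 0.25, and it passed without mutant recovery at -1.23, with an edgeR adjusted p of 0.020. As a share of Gly-GCC 5′ fragments it went from 29.3% to 25.6% and from 23.2% to 19.5%. The most abundant 5′ fragment, which ends at 33, made up 20.6% and 13.8% of the heterozygote libraries, 29.2% and 31.5% of the mutant ones, and 26.6% and 33% of the controls. It had a log2 change of -0.66 ± 0.39 and passed without mutant recovery at -1.16, with an edgeR adjusted p of 0.0021. All Gly-GCC 3′ fragments together made up 14.4% of its placed reads in heterozygote heat shock and 7.15% in recovery. The mutant shares were 9.2% and 3.49%, and the control shares 4.62% and 3.55%.

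Cys-GCA fragments that end at 34 numbered 945 in heterozygote heat shock, 88 in recovery, and 1620 and 29 in the 2 mutant libraries, beside 47 and 251 in the controls. They made up 2.05% and 0.309% of heterozygote reads, 4.32% and 0.566% of mutant reads, and 0.306% and 0.372% of the controls. Both recovery libraries lay below both heat shock libraries. The fragment fell by 3.29 ± 0.54 (SE) on the log2 scale, with an edgeR adjusted p of 0.0051. The pairs alone gave -3.29 (95% interval -3.67 to -3.02) and -3.22 (-3.82 to -2.70). The call was lost without heterozygote control (-3.31, edgeR adjusted p = 0.16), without mutant control (-3.49, edgeR adjusted p = 0.10) and without heterozygote heat shock (-3.40, edgeR adjusted p = 0.053).

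The Cys-GCA fragment that is 1 base shorter, ending at 33, numbered 121 (heat shock) and 137 (recovery) in heterozygotes, then 70 and 14 in mutants. Its log2 change was 0.27 ± 0.42 (SE), with an edgeR adjusted p of 0.66. Among Cys-GCA 5′ fragments the end at 34 went from 77.1% (95% Wilson interval 74.6 to 79.3) to 26.3% (21.8 to 31.2) in heterozygotes. In mutants it went from 90.2% (88.7 to 91.4) to 52.7% (39.8 to 65.3). The end at 33 went the other way, from 9.87% to 40.9% and from 3.90% to 25.5%. In the controls the end at 34 held 41.6% and 62.8%, and the end at 33 held 25.7% and 21.8%. Of 3971 Cys-GCA reads in the 6 libraries 43 were placed as 3′ or internal fragments, so the other side of this cut could not be compared. Whether 3′ pieces are rare or were left out by the rule for 3′ fragments was not tested.

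**Figure D3:**
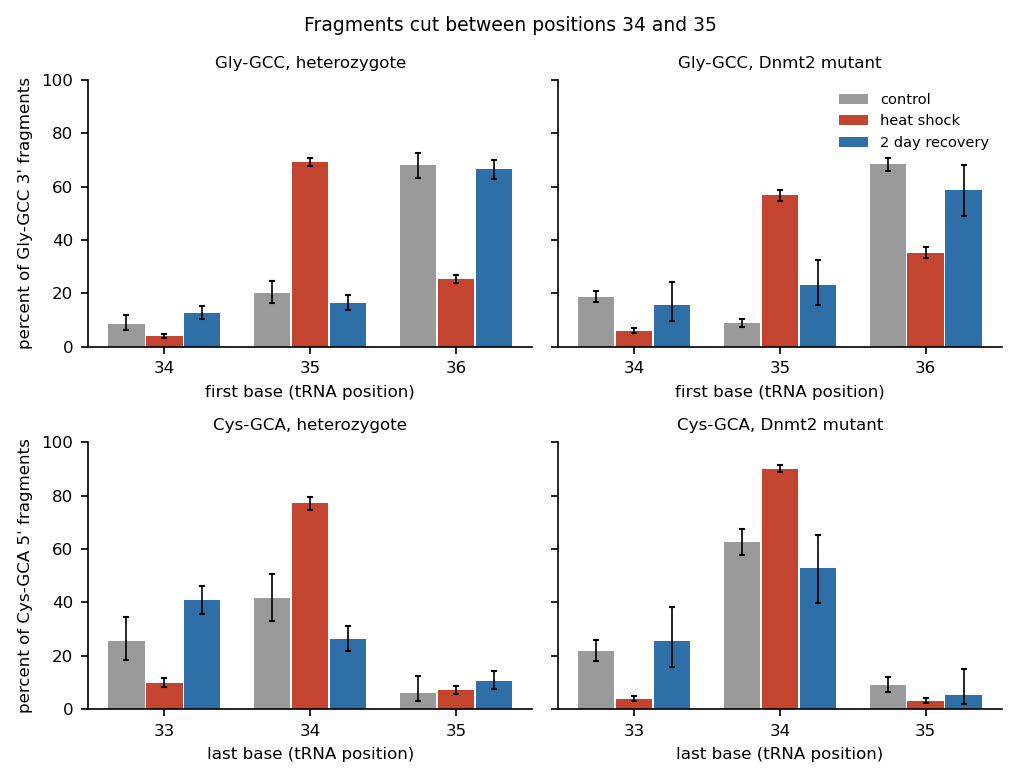
Percent of Gly-GCC 3′ fragments by their first base (top) and of Cys-GCA 5′ fragments by their last base (bottom), in tRNA positions, for control (grey), heat shock (red) and 2 day recovery (blue), with 95% Wilson intervals, heterozygotes left and Dnmt2 mutants right. The start at 35 holds 69.3% and 56.7% in heat shock and 16.3% and 23.2% in recovery, and the end at 34 goes from 77.1% and 90.2% to 26.3% and 52.7%.

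The single cut site that rose was Pro-CGG ending at 35, after the second anticodon base. It had 30 reads in heterozygote heat shock and 96 in recovery, 13 and 11 in mutants, and 71 and 184 in the controls. As a percent of the library these are 0.0651% and 0.337%, 0.0347% and 0.215%, and 0.463% and 0.273%. Both recovery libraries lay above both heat shock libraries. The site reached the read filter in the recovery and control libraries but in neither heat shock library. Its entry into the test therefore favoured a rise. The site rose by 2.00 ± 0.46 (SE) on the log2 scale, with an edgeR adjusted p of 0.023. This call was lost when any 1 of the 6 libraries was left out, with values from 1.77 to 2.27 and the smallest edgeR adjusted p, 0.053, without heterozygote heat shock. Its share of Pro-CGG 5′ fragments went from 25.4% to 39.7% in heterozygotes and, in mutants, from 14.4% to 39.3%, beside 55.9% and 51.4% in the controls. The matching Pro-TGG fragment, which differs from it at 4 bases, numbered 40 (heat shock) and 82 (recovery) in heterozygotes, then 38 and 9 in mutants. The log2 change of this fragment was 0.84 ± 0.45, with an edgeR adjusted p of 0.25. This fragment too reached the read filter in neither heat shock library.

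Among the other 30 cut sites, log2 changes ran from -1.83 to 1.27 and none passed. The lowest was Asp-GTC ending at 33, with 146 reads in heterozygote heat shock, 30 in recovery, and 167 and 11 in the mutant libraries. Its log2 change was -1.83 ± 0.71 (SE), with an edgeR adjusted p of 0.21. It passed without mutant recovery at -2.80, with an edgeR adjusted p of 0.025. Asp-GTC ending at 35, the main Asp-GTC fragment, numbered 1638 (heat shock) and 422 (recovery) in heterozygotes, then 554 and 60 in mutants, with -1.22 ± 0.57. It passed without mutant recovery at -1.94, with an edgeR adjusted p of 0.033. The highest was Ala-AGC ending at 33, with 46 reads in heterozygote heat shock, 125 in recovery, and 32 and 10 in the mutant libraries, at 1.27 ± 0.44 and an edgeR adjusted p of 0.16. It reached the read filter in both recovery libraries and the heterozygote control but in neither heat shock library. Its entry into the test therefore favoured a rise.

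The 3′ side of Asp-GTC made up a larger share of its reads in recovery. Asp-GTC 3′ fragments numbered 354 (heat shock) and 363 (recovery) in heterozygotes, then 157 and 39 in mutants. As a share of placed Asp-GTC reads they went from 13.6% (95% Wilson interval 12.3 to 15.0) to 31.2% (28.6 to 33.9) in heterozygotes. In mutants they went from 14.0% (12.1 to 16.1) to 28.5% (21.6 to 36.5). The control shares, 28.6% and 21.0%, have intervals that overlap those of recovery in both genotypes. Fragments starting at 28, in the anticodon stem, made up 24.3% and 38.8% of heterozygote Asp-GTC 3′ fragments and 5.73% and 10.3% of those of the mutants.

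The shares of cut sites within an isoacceptor do not depend on the scaling of libraries. For 12 of the 33 cut sites the Wilson intervals of heat shock and recovery were apart in the same direction in both genotypes, 6 lower (18.2%) and 6 higher (18.2%). These intervals cover counting error only, and 2 pairs of libraries cannot give a p under 0.5 in a sign-flip permutation test, so no p is given. Besides Gly-GCC and Cys-GCA the 12 sites concern Glu-CTC, Lys-CTT and Lys-TTT, tRNAs that bring glutamate and lysine. Shares within 1 side of an isoacceptor are parts of a whole, so a fall at 1 site raises its neighbours. The 6 falls and 6 rises are therefore not independent. Gly-GCC 3′ starts at 34 and 36 count as higher here, although their fitted log2 changes were -0.39 and -0.86.

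In Glu-CTC the last base of 5′ fragments shifted from 35 towards 33. The end at 35 held 66.8% in heterozygote heat shock, 53.5% in recovery, and 72.3% and 44.7% in the 2 mutant libraries. The end at 33 held 25.7% and 39.4% in heterozygotes and 19.8% and 39.7% in mutants. The heterozygote recovery shares are near the control, which had 55.4% at 35 and 37.9% at 33. The mutant recovery shares are not, since the mutant control had 82.2% at 35 and 15.1% at 33. The log2 changes of the 2 fragments, -0.84 ± 0.42 (SE) and 0.52 ± 0.55, did not pass, each with an edgeR adjusted p of 0.25 or more. The end at 33 passed without heterozygote recovery at 1.01, with an edgeR adjusted p of 0.035.

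In Lys-TTT the last base shifted from 33 towards 34. The end at 34 held 20.4% in heterozygote heat shock, 26.3% in recovery, and 14.1% and 27.3% in the 2 mutant libraries, beside 17.7% and 15.2% in the controls. Both recovery libraries were above both controls. The log2 change of this fragment was 1.05 ± 0.54 (SE), with an edgeR adjusted p of 0.25. In Lys-CTT the end at 35 went from 79.3% to 75.5% and from 84.3% to 78.4%, while the end at 41 went from 5.78% to 7.95% and from 2.41% to 9.72%. The control shares of the end at 41 were 5.86% and 4.04%, below both recovery libraries.

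**Figure D4:**
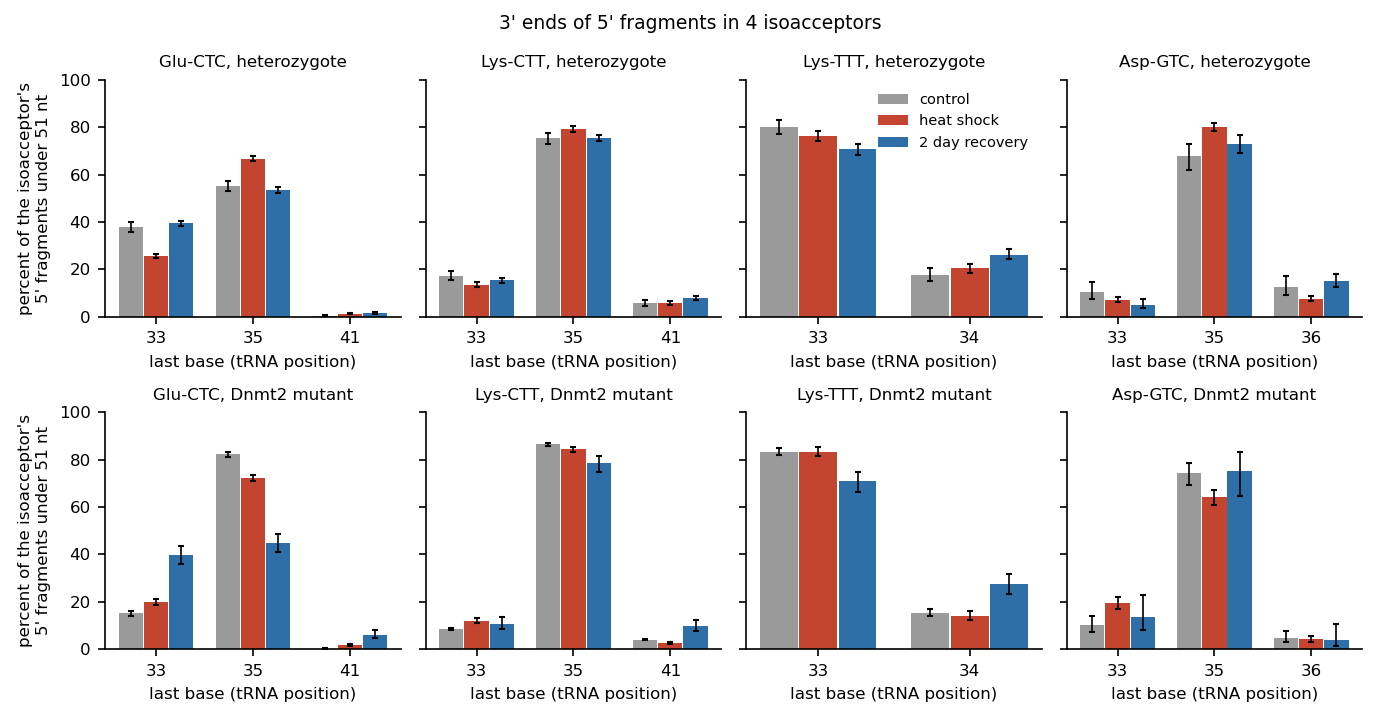
Percent of 5′ fragments under 51 nt by their last base (tRNA position) in Glu-CTC, Lys-CTT, Lys-TTT and Asp-GTC for control (grey), heat shock (red) and 2 day recovery (blue), with 95% Wilson intervals, heterozygotes above and Dnmt2 mutants below. In Glu-CTC the end at 33 goes from 25.7% and 19.8% in heat shock to 39.4% and 39.7% in recovery, and in Lys-TTT the end at 34 goes from 20.4% and 14.1% to 26.3% and 27.3%.

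Single fragments were tested as well, each defined by its tRNA, start, end and sequence variant. Of 43 tested, 4 fell (9.30%) and 1 rose (2.33%), or 11.6% in all, and all 5 belong to the 3 cut sites above. They are not independent of those sites, since they hold the same reads. Here too the split depends on the scaling, with 3 lower and 4 higher under library totals and 7 lower and 0 higher under RLE. DESeq2, with RLE size factors, called 11 lower and 0 higher. The main Gly-GCC 3′ fragment of 38 nt numbered 1860 (heat shock) and 99 (recovery) in heterozygotes, then 982 and 20 in mutants, and fell by 3.60 ± 0.61 (SE) on the log2 scale with an edgeR adjusted p of 0.0024. A sequence variant of the same length had 126 and 5 reads, and 75 and 1 reads in mutants. It fell by 4.35 ± 0.48, with an edgeR adjusted p of 0.00022, and the mutant pair alone gave -3.29 with a 95% interval of -8.98 to -1.14. This variant reached the read filter in neither recovery library, so its entry into the test favoured a fall. It was not called with a filter in at least 3 libraries, so its call is weaker than the p-value makes it look.

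Both Cys-GCA sequence variants that end at 34 fell. The first printed above numbered 827 (heat shock) and 67 (recovery) in heterozygotes, then 1334 and 14 in mutants, with 28 and 91 in the controls. It fell by 3.79 ± 0.58 (SE) on the log2 scale, with an edgeR adjusted p of 0.0017. The second had 117 and 21 reads in heterozygotes, 284 and 14 in mutants, and 18 and 159 in the controls. It fell by 2.08 ± 0.53, with an edgeR adjusted p of 0.032. The second variant is called in 2 of 6 fits that leave out 1 library, at -1.75 to -2.45. The Pro-CGG fragment of 34 nt had 30 and 93 reads, and 13 and 8 in mutants. It reached the read filter in neither heat shock library, so its entry into the test favoured a rise. It rose by 1.78 ± 0.47, with an edgeR adjusted p of 0.033, and is called in 1 of 6 fits that leave out 1 library, at 1.55 to 1.93.

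Without mutant control none of these 5 fragments passed, and without mutant heat shock 1 did. Without mutant control the values were -3.83 for the main Gly-GCC fragment and -3.96 for the first Cys-GCA fragment. Without mutant heat shock the main Gly-GCC fragment stood at -3.71, with an edgeR adjusted p of 0.052.

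Read lengths changed with these fragments. Reads of 38 nt made up 4.93% of heterozygote heat shock (95% Wilson interval 4.73 to 5.13) and 0.996% of recovery (0.887 to 1.12). In mutants they made up 3.24% (3.07 to 3.43) and 0.781% (0.574 to 1.06), and in the controls 1.00% and 0.539%. Gly-GCC fragments starting at 35 were 92.1% and 90.9% of the 38 nt reads in heat shock, and 38.4% and 55.0% in recovery. The other 38 nt reads made up 0.389% and 0.614% of heterozygote reads and 0.294% and 0.351% of mutant reads. All 3′ fragments together made up 8.78% and then 6.13% of placed heterozygote reads, and 6.61% and then 3.96% of placed mutant reads, beside 5.18% and 3.40% in the controls.

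Longer reads were more frequent in recovery. Reads of 40 to 46 nt, a class chosen after the lengths were seen, made up 3.41% of heterozygote heat shock (95% Wilson interval 3.24 to 3.58) and 6.02% of recovery (5.75 to 6.30). In mutants they made up 1.98% (1.84 to 2.12) and 5.57% (4.97 to 6.23). Both recovery libraries lay above both controls, which had 3.49% and 2.5%. Lys-CTT reads of these lengths went from 0.617% to 1.25% of the library and from 0.262% to 1.11%, Glu-CTC reads from 0.842% to 1.22% and from 0.542% to 1.52%. Asp-GTC reads of these lengths went from 0.400% to 0.877% and from 0.0907% to 0.312%. The Asp-GTC reads in this class include 3′ fragments of 45 nt that start at 28, before the anticodon loop, which numbered 82 (heat shock) and 133 (recovery) in heterozygotes, then 7 and 4 in mutants. The controls had 0.6% and 0.895% for Lys-CTT, 0.593% and 0.124% for Glu-CTC, and 0.320% and 0.181% for Asp-GTC.

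**Figure D5:**
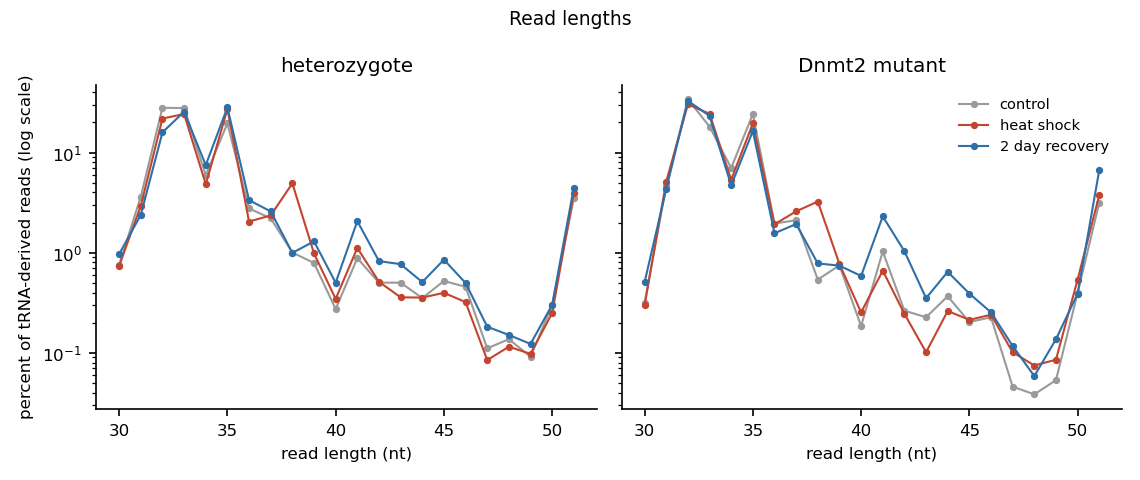
Percent of tRNA-derived reads (log axis) by read length in nt, for control (grey), heat shock (red) and 2 day recovery (blue), heterozygotes left and Dnmt2 mutants right. Heat shock stands out at 38 nt at 4.93% and 3.24%, and recovery is above heat shock from 40 to 46 nt, at 6.02% and 5.57% in sum.

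The mutant recovery library stood apart at 51 nt, the longest length listed. Gly-GCC reads of 51 nt made up 7.81% of its Gly-GCC reads (95% Wilson interval 6.86 to 8.88), against 0.519% in mutant heat shock, 0.823% in the mutant control and 0.533% to 1.11% in the heterozygotes. The main 5′ fragment of this length had 195 reads there and 97 in mutant heat shock, and 95 and 100 in heterozygote recovery and heat shock. Its log2 change over both genotypes was 1.98 ± 0.85 (SE), with an edgeR adjusted p of 0.21, and without heterozygote recovery it was 3.27, with an edgeR adjusted p of 0.00012. Counts of cut sites leave these reads out. Leaving them out of the isoacceptor test still called Cys-GCA alone.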

How the data were processed

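The deposited files give raw read counts for each sequence at each tRNA gene, per the file headers and the values, which are whole numbers. Bowtie and the build dm3 are named in the submitters' processing notes, with no version or settings. RNA of 25 to 70 nt from 200 µg of total RNA was sequenced, per the labels' protocols. The RefSeq table is of another build and gave names and lengths for 288 of 297 genes, so no coordinates are given.

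A read listed at several genes was counted once, and shortened copies of longer reads were taken off. Reads were placed on tRNAs rebuilt from overlapping reads, with at most 4 mismatches. Features were kept if they reached, in 2 libraries, the CPM that 10 counts make in the smallest library. The test was the quasi-likelihood test of edgeR 4.0.16 under R 4.3.3 (glmQLFit, glmQLFTest, TMM scaling, genotype and condition additive over 6 libraries, 2 residual degrees of freedom, Benjamini-Hochberg threshold 0.05, 2-sided). The common biological coefficient of variation was 0.228. With infinite prior degrees of freedom for isoacceptors, features share 1 spread. On simulated counts 95% of 4-fold and 29% of 2-fold isoacceptor changes were recovered, and 54% and 3.5% for cut sites. The simulation gave all features 1 spread, had no genotype effect, left Gly-GCC unchanged and used known scaling factors. These rates may therefore be too high for the real libraries. Pair ratios use a prior count of 2 and exact conditional binomial 95% intervals. Shares have Wilson intervals, and reads carry no molecular identifiers, so intervals cover counting error only.

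Alternatives were RLE, library totals, no filter, DESeq2 1.42.0, other read counting, leaving out each library and, added later, a filter in 3 libraries. DESeq2 used RLE size factors, so it differs from the main fit in scaling as well as in the test. Members and lists were chosen with earlier results of these data known. Named were all features past the threshold, Gly-GCC, Glu-CTC, Lys-CTT, Lys-TTT, Asp-GTC, Cys-GCA and the members of the lists. Other cut sites named in the text were chosen after their values were seen.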

Additional observations from a re-analysis of the deposited data

Results flagged for a closer look

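Of the 33 cut sites tested, 1 moved in opposite directions in the 2 genotypes with both exact 95% intervals away from 0 under TMM scaling. Gly-GCC fragments that end at 36, after the last anticodon base, numbered 555 in heterozygote heat shock and 725 in heterozygote recovery, a log2 ratio of 0.47 (0.32 to 0.64). In mutants they numbered 290 and 19, a log2 ratio of -1.35 (-2.11 to -0.69). The controls held 328 and 908 reads. The heterozygote ratio depends on the scaling: it was 0.026 with RLE size factors, where an interval of the same width includes 0, and 1.07 with library totals. The mutant ratio was -1.54 and -1.05. Among the cut sites with too few reads for the test, Glu-TTC 3′ fragments starting at 39 numbered 10 and 48 in heterozygotes and 24 and 0 in mutants. The intervals cover counting error only, each genotype has 1 pair of libraries, and the difference between the genotypes was not tested.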

How the results depend on the processing

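Called features kept their direction in all alternatives run. Cys-GCA was called in 9 of 9 alternatives with both pairs of libraries complete (-1.64 to -2.40) and in 4 of 6 fits that leave out 1 library. Gly-GCC starting at 35 and Cys-GCA ending at 34 were called in 8 of 9 and 3 of 6, and Pro-CGG ending at 35 in 6 of 9 and 0 of 6. The number of isoacceptors called was 6 with library totals, 3 with DESeq2, 5 with the 4 heat shock and recovery libraries only, 2 with scaling factors made without Gly-GCC, and 0 to 5 with 1 library left out. For cut sites it was 8 with DESeq2 (all lower), 0 with the 4 libraries and 0 to 7 with 1 left out. For single fragments it was 11 with DESeq2 (all lower), 0 with the 4 libraries, 2 without 51 nt reads and 0 to 8 with 1 left out. With 4 libraries 1 residual degree of freedom remains. For the other changes of a count the cause was not tested.

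Sign changes concern features that were not called. With library totals these were Arg-CCT (0.038), Glu-CTC (0.12), Gly-TCC (0.34), Lys-CTT (0.43), Val-CAC (0.0042) and Gly-GCC starting at 34 (0.078). Reads shared by Gln-CTG and Gln-TTG and Ser-AGA stood at -0.21 and -0.30 with RLE, -0.21 and -0.29 with DESeq2, -0.13 and -0.22 with the 4 libraries, and -0.10 and -0.15 without Gly-GCC in the scaling. Cys-GCA ending at 33 was at -0.070 with RLE and -0.070 with DESeq2, and Gly-TCC at 0.27 without 51 nt reads. With 1 library left out the ranges were -0.21 to 0.87 for Gln-CTG, -0.49 to 0.57 for shared glutamine reads, -0.31 to 0.033 for Gly-TCC, -0.48 to 0.33 for Lys-CTT, -0.044 to 0.71 for Lys-TTT, -0.037 to 0.79 for Pro-TGG, -0.10 to 1.51 for SeC-TCA, -0.22 to 0.17 for Ser-AGA, -0.15 to 1.01 for Glu-CTC ending at 33 and -0.50 to 1.97 for Glu-CTC ending at 41.

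Heat shock and recovery libraries were paired by genotype, which is a term of the fit. Beyond this, no paired analysis was possible because the labels give no replicate numbers. The 5121 reads of mutant recovery limit its shares most: 0 reads there allow a share of up to 0.0586%.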
